A study of Mus musculus with 12 samples.

Results

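The BCL2 family decides whether the outer membrane of the mitochondrion stays closed or is opened, the step that commits a cell to the mitochondrial route of apoptosis. Survival proteins (MCL1 and BCL-XL, the product of Bcl2l1) hold back the pore formers BAX and BAK, and the BH3-only proteins (NOXA, BIM, PUMA, BID, BIK and BMF, the products of Pmaip1, Bcl2l11, Bbc3, Bid, Bik and Bmf) bind and occupy the survival proteins or act on the pore formers directly. In the stomach lining, cell death in response to bacteria is part of the turnover of the epithelium. The transcripts of 10 named family members, 2 survival genes, 2 pore genes and 6 BH3-only genes, were followed here in mouse gastric organoids. They were found by name among 25759 genes in the deposited table. All 10 were among the 12805 genes abundant enough to be tested.

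Gastric organoids are small hollow cultures of stomach epithelium. Per the labels these were moved at first passage to matrigel in medium without growth factors or antibiotics, and treated ones were kept with bacteria for 4 h. Each of the 4 groups has 3 libraries. They are organoids with Fusobacterium nucleatum, a species of the mouth and gut, with Helicobacter pylori, the gastric pathogen, with Neisseria subflava, a commensal of the mouth and throat, and untreated control organoids. The strain and dose of the bacteria, the mice of origin and whether replicates were separate cultures are not given in the labels used here. In bulk RNA, more RNA of a gene in each cell and more cells that carry it cannot be told apart. RNA levels are also no measure of the proteins, and NOXA, BIM and MCL1 are known to be set in large part after transcription.

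Libraries held 16955155 to 23236260 counts, and mitochondrial genes took 4.5% to 5.18% of them. All 12 gastric epithelial markers were present in every group, with a summed level of 21200 to 24800 TPM, a level scaled for gene length and to the same sum in each library. Single markers moved in both directions beneath this sum. Gkn2 had 7642 to 8351 counts untreated, 2897 to 4124 with Helicobacter, 3597 to 4491 with Fusobacterium and 4119 to 5021 with Neisseria. Krt18 had 39409 to 51973 counts untreated and 52242 to 57021 with Fusobacterium. Of 16 pancreatic acinar and islet markers, 15 had counts in the untreated group, with a sum of 330 to 439 TPM. The same sum was 225 TPM at most in the Helicobacter group (2689 counts in replicate 1, against 188 and 123 in replicates 2 and 3), 10.4 to 12.2 TPM with Fusobacterium and 11.4 to 13.2 TPM with Neisseria, where 8 of the 16 were at 0 in each group. Leukocyte markers, of which 6 of 7 are in the table, summed to 22.5 to 27 TPM in untreated libraries, 24.3 to 24.7 TPM with Helicobacter, 40.9 to 44.3 TPM with Fusobacterium and 29.3 to 30.8 TPM with Neisseria, most of it from Cd68. The fibroblast sum stayed at or under 4.37 TPM. The part of these other cells in the results below was not tested. Column headers mark untreated replicate 3 and Helicobacter replicate 3 as L0 and the other libraries as L1, and the meaning of the mark is not given.

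Among the 10 genes, the largest changes were in BH3-only genes. Pmaip1 rose with every bacterium, to between 1.97 and 3.85 times its untreated level, and Bmf rose with every bacterium too. Bcl2l11 rose with Fusobacterium and with Neisseria, and its smaller rise with Helicobacter was called by edgeR but not by limma on TPM. Bik and Bid rose with Fusobacterium and with Neisseria. Bbc3 (PUMA) fell with Fusobacterium and rose with Neisseria. The survival gene Bcl2l1 fell with Fusobacterium and, less far, with Neisseria. All 10 genes differed among the 4 groups (edgeR quasi-likelihood test with Benjamini-Hochberg adjustment, largest adjusted p = 3.05e-04, for Mcl1), where 80.8% of all tested genes did.

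**Figure D1:**
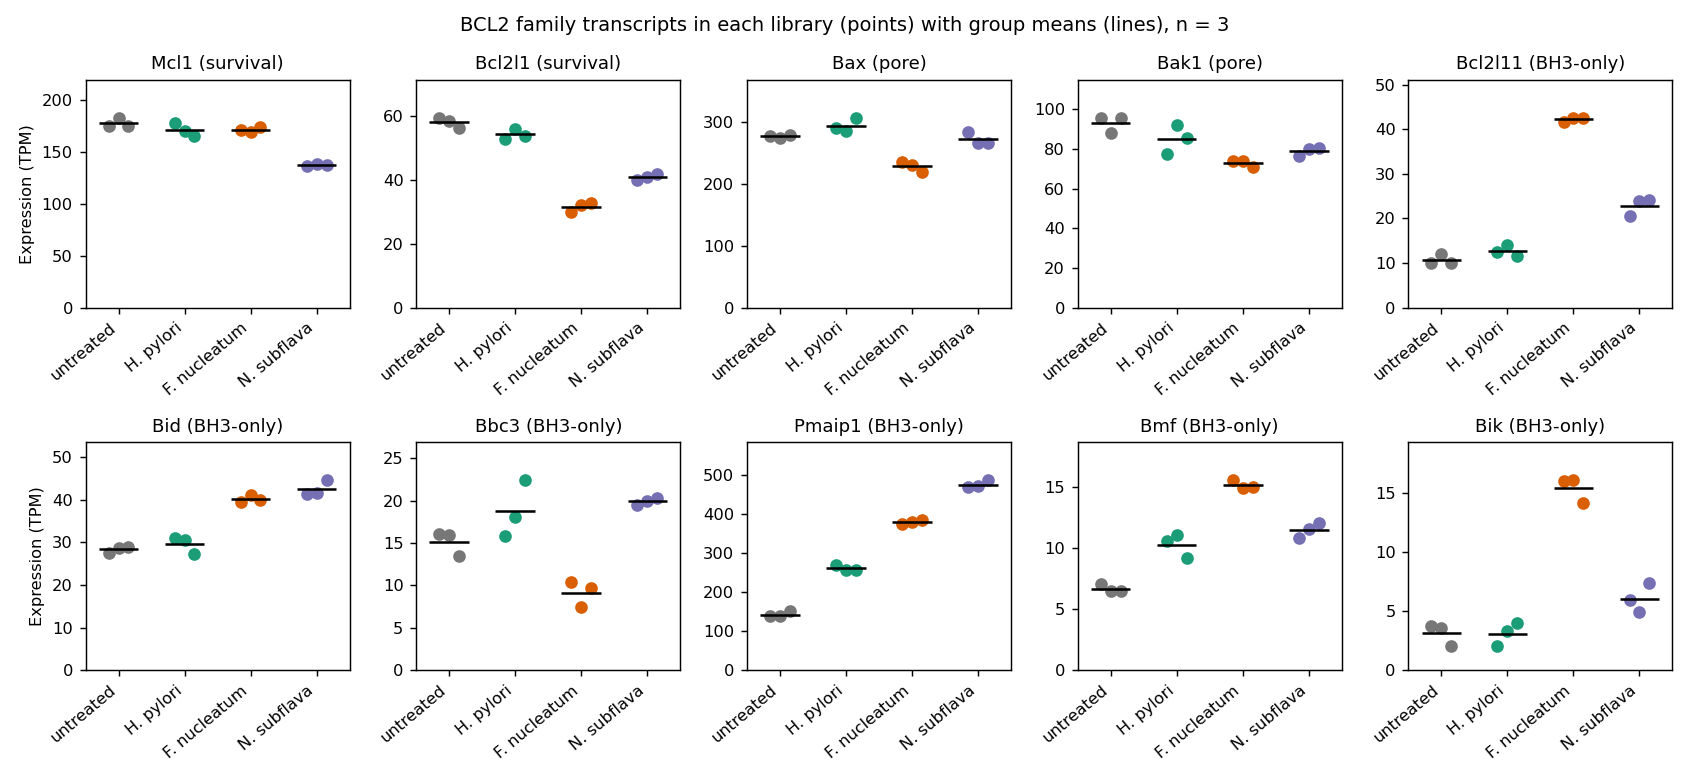
Expression (TPM, linear axis from 0) of the 10 BCL2 family genes in each library, with points for single libraries and lines for group means (n = 3 per group). Pmaip1 increases in the order untreated, H. pylori, F. nucleatum, N. subflava with no overlap between groups, Bcl2l11 and Bik are highest with F. nucleatum, and Bbc3 is lowest there.

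Of the 10 genes, 9 passed the test with Fusobacterium against untreated organoids, 5 higher and 4 lower. In that comparison 65.3% of all tested genes passed, 32.8% higher and 32.4% lower. With Helicobacter 5 genes were higher and none was lower by edgeR (none at an unadjusted p under 0.05 either, and none by DESeq2), against a background of 18.9% of tested genes, 10.5% higher and 8.36% lower. With Neisseria 7 were higher and 2 lower, against a background of 50.8%, 25.4% higher and 25.5% lower. The count of 9 of 10 is above the background share with Fusobacterium and with Neisseria, but where most genes pass the test a pass by itself says little, so the sizes matter more. The median size of the log2 fold change, regardless of direction, was 0.83 in the 10 genes and 0.37 over all tested genes with Fusobacterium. It was 0.18 and 0.14 with Helicobacter, and 0.70 and 0.27 with Neisseria. The 10 genes were chosen with earlier results of these data known, so this difference cannot be extended to the whole family. Of 11 other family genes tested, 7 were not called with Fusobacterium, 6 with Helicobacter and 4 with Neisseria. Changes of at least 2-fold that passed the test were made by 4, 0 and 3 of the genes with Fusobacterium, Helicobacter and Neisseria, where 14.7%, 1.31% and 7.22% of all tested genes made them.

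**Figure D2:**
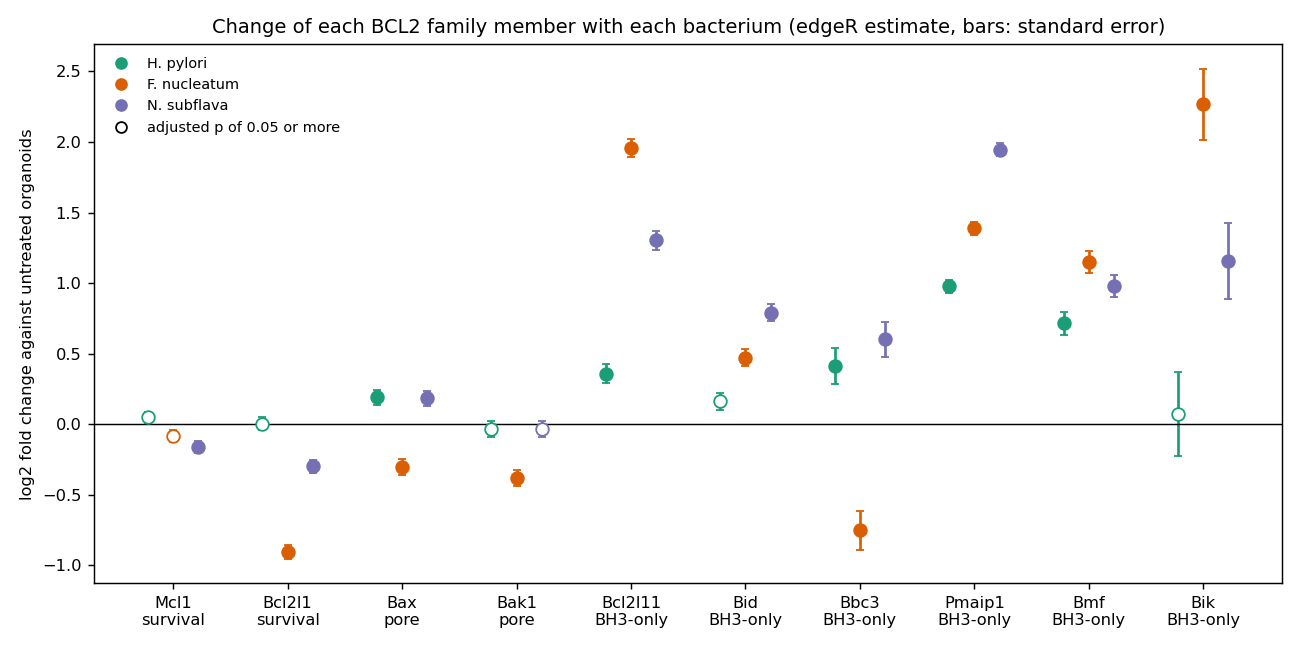
Log2 fold change of each gene against untreated organoids (edgeR estimate, bars show 1 standard error, n = 3 libraries per group), with open points for an adjusted p of 0.05 or more. Bcl2l11 and Bik stand highest with F. nucleatum, Pmaip1 with N. subflava, and Bbc3 lies below 0 with F. nucleatum and above 0 with the other bacteria.

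Among the survival genes, Mcl1 (chr3:95658788-95663176, plus strand, GRCm38) encodes a short-lived protein that restrains BAK and is the main partner of NOXA. It was the more abundant of the pair, with 175, 183 and 175 TPM in untreated libraries, 178, 171 and 165 TPM with Helicobacter, 171, 170 and 174 TPM with Fusobacterium and 136, 139 and 138 TPM with Neisseria. The Neisseria libraries lay below all others, and the other groups stood close together. Mcl1 fell with Neisseria by 0.16 ± 0.04 on the log2 scale (edgeR, adjusted p = 0.00185). Over all alternatives that change ran from -0.368 to -0.147. Mcl1 was not called with Helicobacter (log2 fold change 0.05 ± 0.04, 95% interval -0.03 to 0.13, adjusted p = 0.449) or with Fusobacterium (-0.08 ± 0.04, 95% interval -0.16 to -0.00, adjusted p = 0.0757). Leaving out Helicobacter replicate 2, which changes the shared estimate of the spread, brought the Fusobacterium value past the threshold (adjusted p = 0.0379), and the range over all alternatives was 0.0224 to 0.226.

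Bcl2l1 (chr2:152780668-152831728, minus strand) encodes BCL-XL, the survival protein on which many epithelial cells rely. It measured 59.4, 58.2 and 56.3 TPM in untreated libraries, 52.8, 55.8 and 53.8 TPM with Helicobacter, 40.04, 40.7 and 41.9 TPM with Neisseria and 30.0, 32.0 and 32.7 TPM with Fusobacterium. The groups did not overlap, and the order was untreated, Helicobacter, Neisseria, Fusobacterium. It fell 1.88-fold with Fusobacterium (log2 fold change -0.91 ± 0.05, edgeR adjusted p = 8.92e-14) and 1.23-fold with Neisseria (-0.30 ± 0.05, adjusted p = 8.71e-06). Over all alternatives the Neisseria change ran from -0.502 to -0.287, so its size depends on the processing. With Helicobacter the edgeR estimate was 0.00 ± 0.05 (95% interval -0.09 to 0.09, adjusted p = 0.989), although the TPM of those libraries was lower. With no scaling beyond the library total the estimate was -0.06. The edgeR values elsewhere use TMM scaling, which sets the typical gene to no change.

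Of the pore genes, Bax was the most abundant of all 10 in untreated organoids. Bax (chr7:45461697-45466898, minus strand), whose protein moves from the cytosol to the mitochondrion and forms the pore, measured 278, 274 and 278 TPM in untreated libraries, 290, 286 and 307 TPM with Helicobacter, 236, 231 and 219 TPM with Fusobacterium and 284, 266 and 266 TPM with Neisseria. Fusobacterium libraries lay below all others. Bax fell there by 0.30 ± 0.06 on the log2 scale (edgeR, adjusted p = 3.77e-05). With Helicobacter Bax was called higher (log2 fold change 0.19 ± 0.05, adjusted p = 0.0154), but the call was lost without Helicobacter replicate 3 (adjusted p = 0.109), untreated replicate 1 (0.0605) or untreated replicate 2 (0.0713), and the range over all alternatives was 0.00192 to 0.162. With Neisseria Bax was called higher (0.18 ± 0.05, adjusted p = 0.00701) although its TPM overlapped the untreated values. Limma on log2(TPM + 1) put that change at -0.02 (adjusted p = 0.604), no scaling beyond the library total put it at 0.02 (adjusted p = 0.8), and without Neisseria replicate 1 the edgeR adjusted p was 0.0677.

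Bak1 (chr17:27019810-27029009, minus strand) encodes BAK, the pore former that sits in the mitochondrial membrane. It measured 95.6, 87.7 and 95.7 TPM in untreated libraries, 77.4, 91.9 and 85.6 TPM with Helicobacter, 74.0, 74.1 and 70.8 TPM with Fusobacterium and 76.6, 79.9 and 80.6 TPM with Neisseria. Only with Fusobacterium did it pass the edgeR test, with a fall of 0.38 ± 0.06 on the log2 scale (adjusted p = 3.08e-06). With Neisseria the edgeR estimate was -0.03 ± 0.06 (95% interval -0.14 to 0.08, adjusted p = 0.649), while limma on log2(TPM + 1) gave -0.23 (adjusted p = 0.00224) and no scaling gave -0.20 (adjusted p = 0.0046). With Helicobacter it was -0.03 ± 0.06 (95% interval -0.14 to 0.08, adjusted p = 0.717). In the annotation, 437 exonic bases of Bak1 (18.2%) are shared with Ggnbp1 on the opposite strand, which had group means of 16.3 to 50 counts, far below Bak1.

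Pmaip1, on chromosome 18, encodes NOXA, a BH3-only protein that binds MCL1 and promotes its loss. It was the most abundant BH3-only transcript in every library. It measured 138, 138 and 151 TPM in untreated libraries, 271, 257 and 256 TPM with Helicobacter, 376, 381 and 385 TPM with Fusobacterium and 470, 472 and 487 TPM with Neisseria. The 4 groups did not overlap, and each step in that order was larger than the spread within groups. Pmaip1 rose 1.97-fold with Helicobacter (log2 fold change 0.98 ± 0.05, edgeR adjusted p = 1.05e-13), 2.62-fold with Fusobacterium (1.39 ± 0.05, adjusted p = 2.8e-17) and 3.85-fold with Neisseria (1.95 ± 0.05, adjusted p = 3.24e-20). Among all genes that rose with Helicobacter it ranked 127 by size of the change. Without Helicobacter replicate 1, the library of that group with most pancreatic RNA, the change was 0.94 (adjusted p = 1.72e-11). Between the libraries marked L1 it was 1.03 (adjusted p = 7.77e-14), and between the single pair marked L0 the difference in log2 CPM (counts scaled by library size) was 0.88.

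Bcl2l11 (chr2:128126038-128162547, plus strand) encodes BIM, which binds all survival proteins of the family and can activate BAX and BAK. It measured 10.1, 11.9 and 10.1 TPM in untreated libraries, 12.5, 14.1 and 11.6 TPM with Helicobacter, 20.5, 24.0 and 24.1 TPM with Neisseria and 41.6, 42.5 and 42.6 TPM with Fusobacterium. The Neisseria and Fusobacterium groups stood apart from each other and from the rest, while Helicobacter and untreated values overlapped. The rise was 3.88-fold with Fusobacterium (log2 fold change 1.96 ± 0.07, edgeR adjusted p = 2.27e-17) and 2.47-fold with Neisseria (1.30 ± 0.07, adjusted p = 5.18e-14). With Helicobacter it was 1.28-fold (0.36 ± 0.07, adjusted p = 6.22e-04), and limma on TPM did not call that rise with any of its 3 pseudocounts (adjusted p = 0.0594 to 0.0766) or without its filter (0.105).

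BIM, PUMA and NOXA genes are known targets of transcription factors that respond to stress or to loss of growth factor signals, so the promoters of the family were searched for short motifs. RefSeq promoter windows (GRCm38.p6, from 250 bases before to 50 after each start) were found for 8 of the 10 genes, in 15 windows, with none for Pmaip1 or Bik. Both strands were searched. FOXO factors, which withdrawal of growth factors brings into the nucleus, bind elements that contain GTAAACA. This element was in 2 of the 15 windows, one each of Bcl2l11 and Bbc3, and in 3.65% of all 32851 windows. The stretches with it are shown 5' to 3' on the strand of the gene, with the element in capitals. In Bcl2l11 it begins 227 bases before the start (chr2:128125788-128126037, plus strand). In Bbc3 it lies on the opposite strand and begins 167 bases before one of the starts (chr7:16310084-16310110, plus strand).
Bcl2l11: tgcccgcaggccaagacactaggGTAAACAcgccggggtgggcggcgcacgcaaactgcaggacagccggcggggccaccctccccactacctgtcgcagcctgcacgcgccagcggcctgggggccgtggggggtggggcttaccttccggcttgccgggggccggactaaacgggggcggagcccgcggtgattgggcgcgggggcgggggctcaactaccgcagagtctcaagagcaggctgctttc
Bbc3: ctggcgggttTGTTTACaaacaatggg

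The p53 half-site, written by name only because its letters are ambiguous, was in 2 of the 15 windows, those of Bax and Bmf, and in 8.36% of all windows. The half-site of Bax begins 201 bases before the start and stands in capitals in this stretch (chr7:45466899-45467148, minus strand).
Bax: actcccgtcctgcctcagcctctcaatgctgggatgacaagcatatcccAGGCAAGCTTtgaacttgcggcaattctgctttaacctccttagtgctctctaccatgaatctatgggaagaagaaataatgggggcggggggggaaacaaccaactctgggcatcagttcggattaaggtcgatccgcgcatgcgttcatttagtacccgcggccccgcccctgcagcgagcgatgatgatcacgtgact
The NF-kB site, also given by name only, was in 3 of the 15 windows, of Bbc3, Bcl2l1 and Bmf, and in 4.51% of all windows, and that of Bcl2l1 begins 242 bases before one of its starts (chr2:152830941-152830967, minus strand).
Bcl2l1: tgtttgtgGGGGGTCTCCagcatacgc
The AP-1 element TGANTCA, the cyclic AMP element TGACGTCA and the C/EBP-ATF element TGATGNAA, the last of these the kind bound by ATF4 and CHOP, were in none of the 15 windows, against 7.81%, 1.79% and 3.97% of all windows. The GC box GGGCGG, bound by SP1, was in 9 of the 15 windows, from 6 genes, and in 35.7% of all windows. The core of the dioxin response element, GCGTG, was in 6 of the 15, from 3 genes, and in 32.4% of all windows. The core of the hypoxia response element, ACGTG, was in 3 of the 15, from 3 genes, and in 19.6% of all windows. Some genes have several windows, and windows of Bbc3 overlap, so the 15 are not independent. These are matches of letters and not measured binding.

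Bmf (chr2:118528757-118549687, minus strand) encodes a BH3-only protein that is tied to the cytoskeleton and is released when cells lose attachment. It measured 7.06, 6.52 and 6.49 TPM in untreated libraries, 10.6, 11.1 and 9.16 TPM with Helicobacter, 10.8, 11.6 and 12.1 TPM with Neisseria and 15.6, 14.9 and 15.04 TPM with Fusobacterium. All treated libraries lay above all untreated ones, and Helicobacter and Neisseria overlapped. Bmf rose 1.64-fold with Helicobacter (log2 fold change 0.72 ± 0.08, edgeR adjusted p = 5.15e-07), 1.97-fold with Neisseria (0.98 ± 0.08, adjusted p = 3.71e-10) and 2.22-fold with Fusobacterium (1.15 ± 0.08, adjusted p = 1.25e-11).

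Bik (chr15:83526862-83544635, plus strand) encodes a BH3-only protein found largely at the endoplasmic reticulum. It was the least abundant of the 10 in untreated organoids, with 3.75, 3.54 and 2.06 TPM, which rest on 35, 25 and 17 counts. It measured 2.03, 3.28 and 3.98 TPM with Helicobacter, 5.91, 4.91 and 7.38 TPM with Neisseria and 16.0, 16.1 and 14.1 TPM with Fusobacterium. Fusobacterium libraries stood apart from all others. Bik rose 4.81-fold with Fusobacterium (log2 fold change 2.27 ± 0.25, edgeR adjusted p = 4.15e-08), the largest fold change among the 10 genes, and 2.23-fold with Neisseria (1.16 ± 0.27, adjusted p = 9.84e-04). With Helicobacter the estimate was 0.07 ± 0.30 (adjusted p = 0.899), and its 95% interval of -0.51 to 0.65 is wide at this depth.

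Bid (chr6:120891930-120916853, minus strand) encodes the protein that caspase 8 cuts, which links death receptors to the mitochondrion. It measured 27.6, 28.6 and 28.9 TPM in untreated libraries, 31.0, 30.5 and 27.2 TPM with Helicobacter, 39.5, 41.1 and 39.9 TPM with Fusobacterium and 41.3, 41.7 and 44.5 TPM with Neisseria. Fusobacterium and Neisseria libraries lay above the rest. Bid rose 1.39-fold with Fusobacterium (log2 fold change 0.47 ± 0.06, edgeR adjusted p = 2.97e-07) and 1.73-fold with Neisseria (0.79 ± 0.06, adjusted p = 7e-11), and was not called with Helicobacter (0.16 ± 0.06, 95% interval 0.04 to 0.28, adjusted p = 0.0658). In the annotation, 628 exonic bases of Bid (17.7%) are shared with Bcl2l13 on the opposite strand, which had group means of 1220 to 1390 counts. Whether counting used strand is not given in the sources used here, so reads of that stretch may belong to either gene.

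Bbc3 (chr7:16308393-16318205, plus strand) encodes PUMA, a target of p53 that binds all survival proteins. It measured 16.0, 15.9 and 13.4 TPM in untreated libraries, 15.8, 18.1 and 22.4 TPM with Helicobacter, 10.4, 7.40 and 9.69 TPM with Fusobacterium and 19.4, 19.99 and 20.3 TPM with Neisseria. Fusobacterium libraries lay below all others and Neisseria libraries above all untreated ones, while Helicobacter libraries ran from within the untreated range to above the Neisseria range. Bbc3 fell 1.69-fold with Fusobacterium (log2 fold change -0.75 ± 0.14, edgeR adjusted p = 5.7e-05) and rose 1.52-fold with Neisseria (0.60 ± 0.13, adjusted p = 3.38e-04). With Helicobacter it was called higher (0.41 ± 0.13, adjusted p = 0.0235), but not without Helicobacter replicate 3 (adjusted p = 0.209), untreated replicate 2 (0.0524) or untreated replicate 3 (0.093), with a range of 0.00993 to 0.425 over all alternatives. Between libraries marked L1 the Helicobacter change was 0.18 (adjusted p = 0.425), and between the pair marked L0 it was 0.85 in log2 CPM.

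The call count with Helicobacter rests on these small changes. Without Helicobacter replicate 3 or without untreated replicate 2, 3 of the 10 genes were called, and among the libraries marked L1 there were 4, with Bid in (log2 fold change 0.22, adjusted p = 0.0422) and Bax (0.15, adjusted p = 0.0964) and Bbc3 (0.18, adjusted p = 0.425) out. Without Helicobacter replicate 1 the count stayed at 5. Pmaip1 and Bmf were called under every alternative that was run.

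The levels within a library were also set against each other. These sums and ratios of TPM are a description and carry no test, and they say nothing of protein. The 6 BH3-only genes summed to 206 ± 4.74 TPM (SD, n = 3) in untreated organoids, 336 ± 6.32 TPM with Helicobacter, 503 ± 3.88 TPM with Fusobacterium and 579 ± 14.4 TPM with Neisseria. The 2 survival genes summed to 236 ± 5.10 TPM, 226 ± 6.10 TPM, 203 ± 3.20 TPM and 179 ± 1.92 TPM in the same order. For these genes, the BH3-only sum was thus below the survival sum in each untreated library and above it in each treated one. The ratio was 0.875 ± 0.0354 untreated, 1.49 ± 0.0169 with Helicobacter, 2.48 ± 0.0234 with Fusobacterium and 3.24 ± 0.0600 with Neisseria. The sums leave out other family genes such as Bad (32.6 TPM untreated), Bcl2l2 (21.1 TPM) and Bcl2 (9.36 TPM), so the crossing may depend on the genes chosen. Pmaip1 made up most of the BH3-only sum, from 69.0% ± 1.98 untreated to 82.3% ± 0.468 with Neisseria. The other 5 BH3-only genes summed to 64.0 ± 2.79 TPM untreated, 74.4 ± 2.58 TPM with Helicobacter, 122 ± 0.780 TPM with Fusobacterium and 103 ± 5.17 TPM with Neisseria, so the order of Fusobacterium and Neisseria turns when Pmaip1 is set aside. Their sum stayed below the survival sum in every library. That ratio was 0.271 ± 0.00675 untreated, 0.330 ± 0.0165 with Helicobacter, 0.601 ± 0.0129 with Fusobacterium and 0.575 ± 0.0239 with Neisseria.

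Known binding partners gave different orders of the bacteria. Pmaip1 over Mcl1, the genes of NOXA and its main partner, was 0.801 ± 0.0549 untreated, 1.53 ± 0.0219 with Helicobacter, 2.22 ± 0.0243 with Fusobacterium and 3.46 ± 0.0669 with Neisseria. Bcl2l11 over Bcl2l1, the genes of BIM and BCL-XL, was 0.184 ± 0.0184 untreated, 0.235 ± 0.0187 with Helicobacter, 0.558 ± 0.0402 with Neisseria and 1.34 ± 0.0415 with Fusobacterium. Fusobacterium libraries were the only ones in which Bcl2l11 exceeded Bcl2l1 in TPM. The pore genes Bax and Bak1 summed to 370 ± 6.62 TPM, 379 ± 12.7 TPM, 302 ± 10.3 TPM and 351 ± 8.31 TPM in untreated, Helicobacter, Fusobacterium and Neisseria libraries. Another family gene, Bok, is not in this sum and measured 135 ± 11.6, 151 ± 4.23, 100 ± 2.38 and 162 ± 10.6 TPM in the same order. The order of the groups in the sum may depend on the genes chosen.

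**Figure D3:**
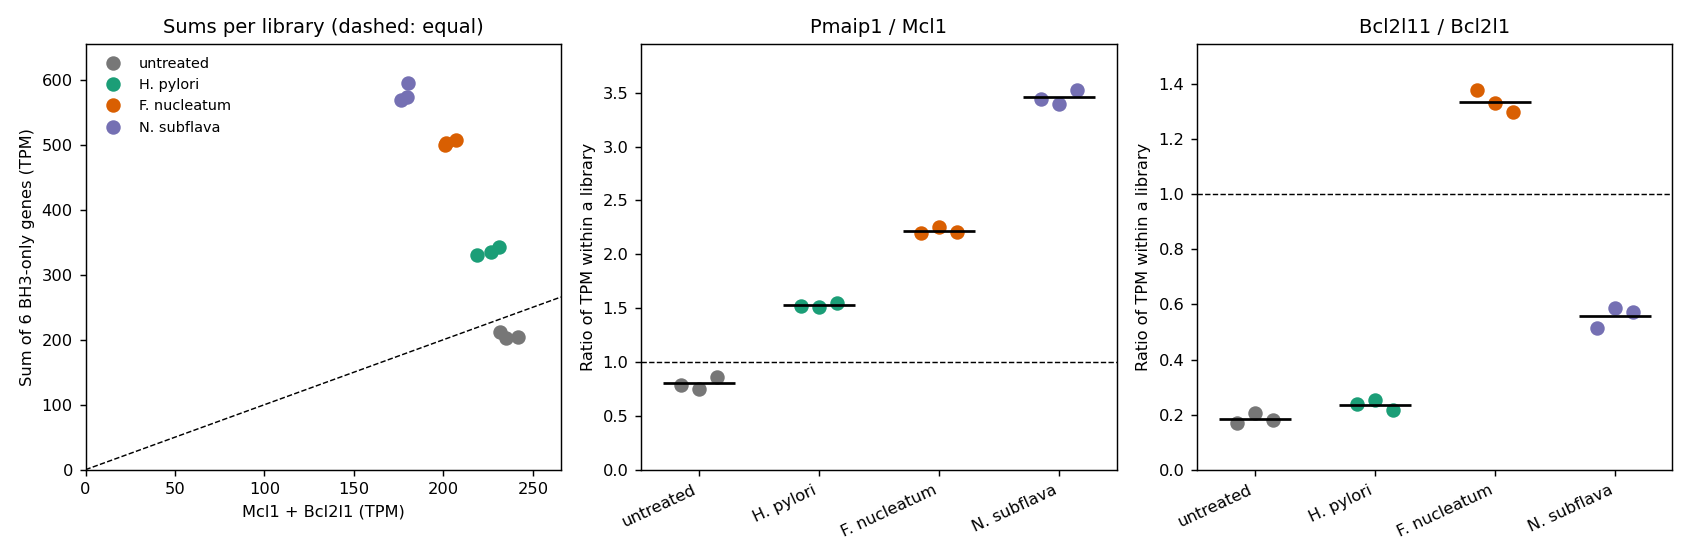
Left, the sum of the 6 BH3-only genes against the sum of Mcl1 and Bcl2l1 (TPM, both axes from 0, a point per library, dashed line where both are equal); middle and right, the ratio of Pmaip1 to Mcl1 and of Bcl2l11 to Bcl2l1 within each library with group means as lines (n = 3). The ratio of Pmaip1 to Mcl1 is highest with N. subflava (3.46) and that of Bcl2l11 to Bcl2l1 with F. nucleatum (1.34).

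The bacteria were also compared with each other directly. Fusobacterium against Helicobacter called all 10 genes, 5 higher and 5 lower, where 65.3% of tested genes passed, 31.8% higher and 33.5% lower. Bik was 4.58-fold higher with Fusobacterium (log2 fold change 2.19 ± 0.25, edgeR adjusted p = 6.49e-08) and Bcl2l11 3.03-fold higher (1.60 ± 0.06, adjusted p = 9.11e-16). Bbc3 was 2.24-fold lower (-1.17 ± 0.14, adjusted p = 1.12e-07) and Bcl2l1 1.88-fold lower (-0.91 ± 0.05, adjusted p = 1.06e-13). Bmf (0.43 ± 0.08), Pmaip1 (0.41 ± 0.05) and Bid (0.31 ± 0.06) were higher, and Bax (-0.49 ± 0.06) and Bak1 (-0.35 ± 0.06) lower, with adjusted p of 7.25e-05 or less. Mcl1 was called lower (-0.13 ± 0.04, adjusted p = 0.00708), but its mean TPM was the same in both groups, limma on log2(TPM + 1) gave 0.00 (adjusted p = 0.978), and the edgeR call was lost without Helicobacter replicate 1 (adjusted p = 0.0503, range over all alternatives 0.00113 to 1).

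Fusobacterium against Neisseria called 8 genes, 2 higher and 6 lower, where 66.6% of tested genes passed, 32.5% higher and 34.1% lower. Bcl2l11 (log2 fold change 0.65 ± 0.06, edgeR adjusted p = 2.25e-09) and Bik (1.11 ± 0.23, adjusted p = 1.88e-04) were higher with Fusobacterium. Bbc3 was 2.56-fold lower (-1.36 ± 0.14, adjusted p = 8.59e-09), followed by Bcl2l1 (-0.61 ± 0.05, adjusted p = 1.15e-10), Pmaip1 (-0.56 ± 0.05, adjusted p = 2.01e-10) and Bax (-0.49 ± 0.06, adjusted p = 4.36e-08). Bak1 (-0.35 ± 0.06, adjusted p = 1.05e-05) and Bid (-0.32 ± 0.06, adjusted p = 4.16e-05) were called lower, but limma on log2(TPM + 1) called neither (adjusted p = 0.088 and 0.248). Bmf missed the threshold (0.17 ± 0.08, adjusted p = 0.0507) and passed it without Helicobacter replicate 3 (0.0465) and in limma on log2(TPM + 1) (7.37e-04), with a range of 3.86e-04 to 0.139 over all alternatives. Mcl1 was not called (0.08 ± 0.04, adjusted p = 0.0917), although limma on log2(TPM + 1) called it higher (0.31, adjusted p = 1.17e-06).

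Helicobacter against Neisseria called 7 genes, 2 higher and 5 lower, where 36.7% of tested genes passed, 17.7% higher and 19.0% lower. The survival genes Bcl2l1 (log2 fold change 0.30 ± 0.05, edgeR adjusted p = 1.38e-05) and Mcl1 (0.21 ± 0.04, adjusted p = 2.32e-04) were higher with Helicobacter. The BH3-only genes Bik (-1.09 ± 0.27, adjusted p = 0.00251), Pmaip1 (-0.97 ± 0.05, adjusted p = 2.75e-14), Bcl2l11 (-0.95 ± 0.07, adjusted p = 2.98e-11), Bid (-0.63 ± 0.06, adjusted p = 5.98e-09) and Bmf (-0.26 ± 0.08, adjusted p = 0.0084) were lower. Bmf was not called by limma on log2(TPM + 1) (adjusted p = 0.159). Bax (0.01 ± 0.05, 95% interval -0.10 to 0.11), Bak1 (-0.00 ± 0.06, 95% interval -0.11 to 0.11) and Bbc3 (-0.19 ± 0.12, 95% interval -0.43 to 0.05) were not called, and Bbc3 was called without Helicobacter replicate 3 (-0.36, adjusted p = 0.019, range over all alternatives 0.0174 to 0.693).

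Scaling bears on the small changes. With no scaling beyond the library total, the median change of all tested genes moved by -0.17 on the log2 scale for Neisseria against untreated, by 0.18 for Fusobacterium against Neisseria and by 0.11 for Helicobacter against Neisseria. The share of all calls that were higher then moved from 49.9% to 26.9%, from 48.7% to 65.9% and from 48.2% to 71.5% in those comparisons, and from 55.8% to 32.1% for Helicobacter against untreated. Of the 48 calls in 60 comparisons of a gene, 40 were made under all 23 alternatives.

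Around the 10 genes, 11 other BCL2 family genes of 15 listed were abundant enough to test. With Fusobacterium 2 were higher and 2 lower, with Helicobacter 4 and 1, and with Neisseria 5 and 2. For this list and each list below, the background is the share of all tested genes called. It was 65.3% with Fusobacterium (32.8% higher, 32.4% lower) and 18.9% with Helicobacter (10.5% higher, 8.36% lower). With Neisseria it was 50.8% (25.4% higher, 25.5% lower). The median log2 fold change of the list was 0.06, 0.09 and 0.17, against -0.00, 0.00 and -0.02 over all tested genes. Bnip3, whose protein marks mitochondria for autophagy and is a known target of hypoxia-inducible factor, rose from 23.1 ± 1.05 TPM (SD, n = 3) untreated to 79.0 ± 8.35 TPM with Fusobacterium, 173 ± 5.53 TPM with Helicobacter and 338 ± 8.66 TPM with Neisseria, a log2 fold change there of 4.08 ± 0.07 (edgeR adjusted p = 4.27e-23). Its relative Bnip3l rose by 1.14 ± 0.05 with Neisseria (adjusted p = 5.87e-16), from 86.6 ± 7.04 to 165 ± 6.71 TPM. Bcl2, the survival gene after which the family is named, was low and fell in every treated group, from 9.36 ± 0.965 TPM untreated to 6.19 ± 1.02 TPM with Helicobacter, 5.82 ± 0.281 TPM with Fusobacterium and 3.49 ± 0.279 TPM with Neisseria (log2 fold change there -1.21 ± 0.09, adjusted p = 1.36e-10).

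**Figure D4:**
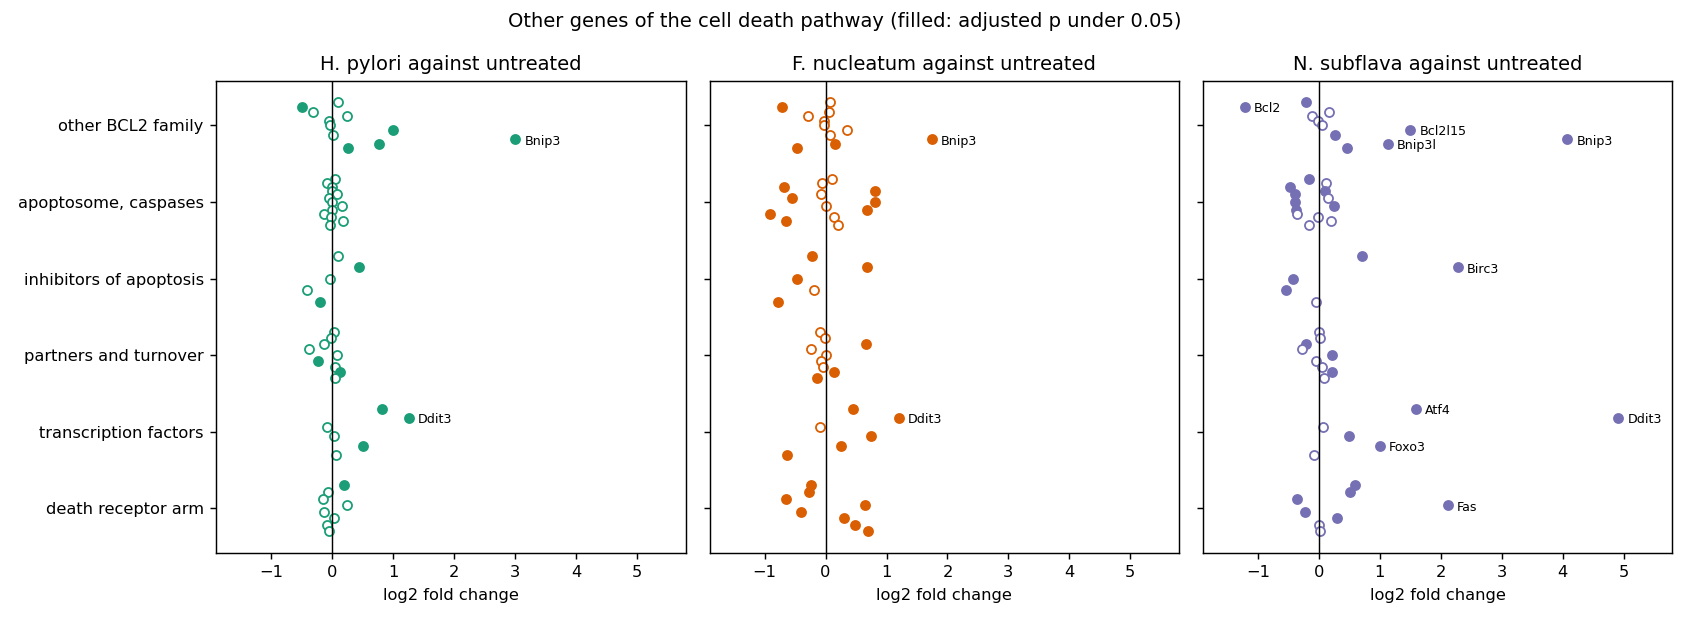
Log2 fold change against untreated organoids (edgeR estimate, n = 3 libraries per group) of the other genes of the pathway in 6 lists, with filled points for an adjusted p under 0.05 and names for changes of at least 2-fold. Bnip3 and Ddit3 stand farthest from 0, at 4.08 and 4.92 with N. subflava.

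Downstream of the pore, 13 genes of the apoptosome and caspases were tested. With Fusobacterium 3 were higher and 4 lower, with Neisseria 2 and 5, and with Helicobacter edgeR called 0 (1 at an unadjusted p under 0.05, and 0 by DESeq2). Casp9, the caspase the apoptosome activates, rose with Fusobacterium from 8.94 ± 0.165 to 16.0 ± 0.432 TPM (log2 fold change 0.81 ± 0.09, edgeR adjusted p = 5.48e-08). Dffb, a nuclease that cuts DNA in dying cells, fell from 9.35 ± 0.664 to 5.03 ± 1.17 TPM (-0.92 ± 0.16, adjusted p = 3.25e-05). Without scaling the Neisseria count was 0 higher and 7 lower. Cycs (log2 fold change 0.25 with TMM and 0.09 without) was among those that lost the call, and Htra2 and Dffb gained theirs.

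Of 5 inhibitors of apoptosis, 1 was higher and 3 lower with Fusobacterium, 1 and 1 with Helicobacter, and 2 and 2 with Neisseria. Birc3, an NF-kB target whose protein restrains caspase 8 activation downstream of TNF receptors, rose with Neisseria from 12 ± 0.907 to 50.7 ± 0.744 TPM (log2 fold change 2.28 ± 0.06, edgeR adjusted p = 3.11e-19), and Birc2 from 14.9 ± 1.31 to 21.0 ± 1.08 TPM (0.70 ± 0.08, adjusted p = 1.65e-07). Xiap, a direct inhibitor of caspases, fell with Fusobacterium from 33.0 ± 2.53 to 19.7 ± 0.797 TPM (-0.78 ± 0.06, adjusted p = 1.13e-10). Of 9 partners and turnover factors of BCL2 proteins, 2, 1 and 2 were higher and 1 was lower with each of Fusobacterium, Helicobacter and Neisseria. Fbxw7, which marks MCL1 for breakdown, rose with Fusobacterium from 11.6 ± 0.553 to 18.8 ± 0.756 TPM (0.66 ± 0.07, adjusted p = 1.33e-08), and Usp9x, which stabilises MCL1, fell with Helicobacter (-0.23 ± 0.07, adjusted p = 0.0197). March5, a mitochondrial ubiquitin ligase, was called higher with Neisseria (0.22 ± 0.06, adjusted p = 0.00385) with TMM but not without scaling (0.05, adjusted p = 0.478), and its mean TPM was 71.3 untreated and 71.9 with Neisseria.

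Upstream of the BH3-only genes, 6 transcription factors of 8 listed were tested, and 4 were higher and 1 lower with Fusobacterium, 3 higher with Helicobacter and 4 higher with Neisseria. Ddit3, which encodes CHOP, a stress factor known to act on Bcl2l11 and Bbc3, measured 13.6 ± 1.80 TPM untreated, 30.1 ± 3.90 TPM with Helicobacter, 31.8 ± 3.11 TPM with Fusobacterium and 353 ± 11.4 TPM with Neisseria (log2 fold change there 4.92 ± 0.11, edgeR adjusted p = 4.07e-20). Atf4, which is known to act on Pmaip1, measured 277 ± 2.03, 452 ± 12, 388 ± 11.4 and 725 ± 23.5 TPM in the same order (1.59 ± 0.04 with Neisseria, adjusted p = 1.58e-19), and Foxo3 measured 22.8 ± 0.973, 30.2 ± 2.43, 27.6 ± 0.495 and 39.7 ± 3.56 TPM (1.004 ± 0.053 with Neisseria, adjusted p = 9.16e-14). Foxo1, named here after its values were seen, was highest with Fusobacterium (16.8 ± 0.677 TPM, against 9.78 ± 0.490 untreated, 9.32 ± 0.803 with Helicobacter and 12 ± 1.02 with Neisseria). Its log2 fold change was 0.75 ± 0.06 with Fusobacterium (adjusted p = 4.5e-10). Trp53, the gene of p53, is also named after its values were seen, as the factor called lower with Fusobacterium (-0.64 ± 0.05, edgeR adjusted p = 5.24e-11). It measured 161 ± 5.65 TPM untreated, 157 ± 10.9 with Helicobacter, 106 ± 4.03 with Fusobacterium and 133 ± 7.31 with Neisseria. With Neisseria Trp53 was not called (-0.07 ± 0.05, edgeR adjusted p = 0.21), but without scaling it was called lower (-0.24, adjusted p = 2.29e-04). Without scaling the Neisseria counts, higher and lower, became 4 and 3 for the other BCL2 family genes, 2 and 3 for the inhibitors of apoptosis, 0 and 5 for the partners, 4 and 1 for the transcription factors and 4 and 3 for the death receptor arm, and each Fusobacterium count was the same as with TMM. In the death receptor arm that leads to Bid, 4 of 8 genes were higher and 4 lower with Fusobacterium, 1 higher with Helicobacter (0 higher and 1 lower without scaling), and 4 higher and 2 lower with Neisseria. Fas, a death receptor, rose with Neisseria from 7.10 ± 1.25 to 26.5 ± 2.19 TPM (2.12 ± 0.13, adjusted p = 1.18e-12). With Fusobacterium the adaptor Tradd rose from 16.9 ± 2.54 to 27.8 ± 2.38 TPM (0.69 ± 0.11, adjusted p = 6.59e-06), and the adaptor Fadd fell from 10.8 ± 0.185 to 7.04 ± 0.882 TPM (-0.64 ± 0.11, adjusted p = 1.21e-05).

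For the 3 family genes with the smallest p for any difference among the 4 groups, the genes most like them were taken by the smallest root mean square difference in centred log2 CPM (counts scaled by library size) over the 12 libraries, as a description. Nearest to Pmaip1 were Maff (0.11), Tmcc3 (0.14) and Slc2a1 (0.16), where the SD of Pmaip1 itself over the libraries was 0.74. Slc2a1, a glucose transporter, measured 75.6, 177, 251 and 316 TPM on average in untreated, Helicobacter, Fusobacterium and Neisseria libraries, the order Pmaip1 has. Nearest to Bcl2l11 were Abtb2 (0.15), Sema7a (0.15) and Plau (0.18), with an SD of 0.81, and Plau, the urokinase gene, averaged 18.7, 19.6, 67.7 and 46.4 TPM. Nearest to Bcl2l1 were Mid1ip1, Rab11b and Adh7 (0.06 each), with an SD of 0.39, and Adh7, a gastric alcohol dehydrogenase, averaged 82.4, 82.4, 46.4 and 61.8 TPM. The points share libraries and depth.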

How the data were processed

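Gene counts in 12 libraries of mouse gastric organoids are raw counts, whole numbers that the authors deposited, per the file headers. TPM values, scaled for gene length, stand beside them in the table the authors deposited. Coordinates use GRCm38, per the submitters' processing notes. The aligner, the counting method and its use of strand are not given in the sources used here. Another 24 columns of per-sample values (RPKM and CPM) were not used. Totals were 16955155 to 23236260 counts per library.

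Counts were tested with edgeR 4.0.16 in R 4.3.3 (default filter on low counts, TMM scaling, robust quasi-likelihood fits, two-sided). All 12 libraries entered 1 model with a coefficient per group. The filter kept 12805 genes, which hold 99.96% of counts, and p was adjusted over them by Benjamini-Hochberg (threshold 0.05, no fold minimum). A standard error is the log2 fold change over the square root of its F value, and a 95% interval is the normal one made from it, not adjusted. Such an interval can be narrower than the test implies. That of Mcl1 with Fusobacterium leaves out 0, although its unadjusted edgeR p was 0.0516. Expression is mean TPM ± SD (n = 3). P values measure the spread between these libraries only, which may be technical; replicates differed by a chi-square of 2.26 to 11 per degree of freedom, so none was a repeat deposit. The common coefficient of variation was 5.71%. The test was first tried on simulated counts.

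Alternatives were median-of-ratios scaling, no scaling, no filter, DESeq2 1.42.0, limma 3.58.1 on log2(TPM + 1), on TPM + 0.1 and + 5 and without its filter (a mean of 1 TPM in some group), only the libraries compared, a replicate block, each library left out, and only libraries marked L1. All 10 family genes are named. In each list of other pathway genes, the 3 past the threshold with the largest absolute log2 fold change in any comparison with untreated organoids and a mean of at least 5 TPM in the higher group are named, except that a gene that meets the rule is not reported here. Genes named beside them (Cycs, Htra2, Foxo1, Trp53, Bad, Bcl2l2, Bok and those with a neighbouring pattern) were chosen after their values were seen or by the likeness rule. Lists and members were chosen with earlier results of these data known. Exons were compared with GENCODE M21, and promoters are from RefSeq.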

Additional observations from a re-analysis of the deposited data

Results flagged for a closer look

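Bbc3 moved in opposite directions in different groups. It fell with Fusobacterium and rose with Neisseria and Helicobacter against the same untreated libraries, and the direct test of Fusobacterium against each gave a log2 difference of -1.165 against Helicobacter (edgeR adjusted p = 1.12e-07) and of -1.355 against Neisseria (adjusted p = 8.59e-09). Its rise with Helicobacter was not called without Helicobacter replicate 3 (adjusted p = 0.209), untreated replicate 2 (0.0524) or untreated replicate 3 (0.093), while its fall with Fusobacterium and its rise with Neisseria were called under every alternative run. Bbc3 was lower in 3 of 3 Fusobacterium libraries than in any other library.

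Bax was lower with Fusobacterium and was called higher with Helicobacter and Neisseria. The direct test gave a log2 difference of -0.494 between Fusobacterium and Helicobacter (edgeR adjusted p = 3.85e-08) and of -0.487 between Fusobacterium and Neisseria (adjusted p = 4.36e-08), both called under every alternative run. The rise with Neisseria was not called with no scaling (0.016) and was -0.024 in limma on TPM, and the rise with Helicobacter was lost without single libraries, so the opposite directions are less firm than the difference. The leukocyte and endothelial marker sums were also highest in the Fusobacterium group (40.9 to 44.3 TPM and 0.840 to 1.48 TPM, against 22.5 to 27 and 0.452 to 0.606 TPM untreated), and their part in these values was not tested.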

How the results depend on the processing

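Each of 60 comparisons of a gene was repeated under 23 alternatives. Of 1380 values, 1262 kept their direction and side of the threshold, 40 lost the call, 28 gained one and 50 changed sign, most of these close to 0. Of the 48 calls, 40 held under every alternative and 8 did not, among which Bax with Neisseria against untreated (limma on TPM -0.024 with each pseudocount and without its filter) and Mcl1 with Fusobacterium against Helicobacter (0.001 in each) changed sign. The cause was not tested. TPM is not rescaled by TMM.

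The number of genes of the family called with Helicobacter against untreated was 5, and was 3 with no scaling, 2 in each limma fit on TPM and 3 to 5 with each library left out (3 without Helicobacter replicate 3 or untreated replicate 2). Over all genes the same comparison gave 1594 to 3136 calls with each library left out (1594 without untreated replicate 1, 1596 without untreated replicate 2), against 2419.

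The other sign changes were in values not called. Bcl2l1 with Helicobacter was -0.007 with median-of-ratios scaling, -0.059 with no scaling, -0.001 with no filter, -0.008 by DESeq2, -0.097, -0.098, -0.09 and -0.097 in the limma fits (TPM + 1, + 0.1, + 5 and no filter), -0.026 with libraries marked L1 and -0.019 to 0.014 with each library left out. Mcl1 with Helicobacter was -0.013 with no scaling and -0.054, -0.054, -0.052 and -0.054 in the limma fits. Bik with Helicobacter was -0.012, -0.016, -0.005 and -0.012 in the limma fits, -0.389 with libraries marked L1 and -0.174 to 0.313 with each library left out. Bax for Helicobacter against Neisseria was -0.004 with median-of-ratios scaling, -0.004 by DESeq2, -0.001 with only the libraries compared, -0.049 with libraries marked L1 and -0.049 to 0.065 with each library left out. Bak1 for Helicobacter against Neisseria was 0.105 with no scaling, 0.1, 0.101, 0.096 and 0.1 in the limma fits and -0.043 to 0.058 with each library left out. Bak1 with Helicobacter ran from -0.082 to 0.024 and with Neisseria from -0.081 to 0.001 with each library left out, and was 0.001 with Neisseria in libraries marked L1.

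Whether the replicate numbers pair the libraries is not given. The deviations of same-numbered libraries correlated between -0.096 and 0.092 in 18 pairs, which shows no strong pairing but cannot exclude one. The highest value was that of untreated and Helicobacter replicates 3, which share the mark L0. With the replicate number as a block, the counts of family genes called were 9, 5 and 9 with Fusobacterium, Helicobacter and Neisseria against untreated and 10, 8 and 7 between the bacteria, as without the block, and 2560 genes in all were called with Helicobacter.

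Depth limits Bik most, with 17 to 35 counts in untreated libraries. With 3 libraries a group and a coefficient of variation of 5.71%, some small changes lie near the limit of the test. Examples are the rises of Bax with Helicobacter and Neisseria and the change of Mcl1 with Fusobacterium. The fall of Bax with Fusobacterium was called under every alternative run.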
